A study of Mus musculus with 16 samples.

Results

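The 7 genes described here form the mouse Lin28 axis and its oncofetal neighbours: Lin28a, Lin28b, Trim71, Hmga2, Igf2bp1, Igf2bp2 and Igf2bp3. They were taken by symbol from a raw count table of 34042 genes, and all 7 were found and passed the filter on low counts that left 18555 genes for testing. The table covers bulk RNA sequencing of cultured mouse pluripotent cells, with 16 libraries in 4 groups and no genetic modification named in the labels. Formative stem cells (FS) were kept in A3XR and are represented by lines 5ar1 (passages 10, 12 and 14) and 5ar3 (passages 4, 5 and 12), 6 libraries in all. Epiblast stem cells (EpiSCs) gave 3 libraries of line AFX6 in AFX medium (EpiSC_AFX, passages 5, 8 and 12) and 3 of line AF32 in AF medium (EpiSC_AF, passages 13, 14 and 15). Naive embryonic stem cells (ES) came from line E14IV-C, kept in 2iL, with 4 libraries at passages 12, 13, 15 and 20. Only FS has more than 1 line, so line and medium cannot be told apart in the other groups. The p-values measure the spread between passages of these lines and, where FS is pooled, also that between lines 5ar1 and 5ar3. In the main group fit each gene's spread was estimated over all 16 libraries. The difference between lines 5ar1 and 5ar3 therefore also enters group comparisons without FS, such as that between the EpiSC groups.

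Lin28a and Lin28b are RNA-binding proteins that bind the precursors of the let-7 microRNAs and block their maturation. Mature let-7 in turn represses mRNAs that carry matches to its seed in their 3′ untranslated region (UTR), among them the Lin28 genes themselves, so that each side of the pair restrains the other. Trim71 is an RNA-binding ubiquitin ligase of early embryos, Hmga2 is a chromatin protein that binds AT-rich DNA, and Igf2bp1, Igf2bp2 and Igf2bp3 bind and stabilise target mRNAs. The group is called oncofetal because its members are active in embryonic cells, mostly silent in adult tissue, and re-expressed in tumours.

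The let-7 seed links the members in sequence. RefSeq (GRCm38.p6) listed 11 mature sequences of the mouse let-7 family, of which 10 shared the seed GAGGUAG at bases 2 to 8. The sequences of let-7a, let-7g and miR-98 are shown because they share the seed and differ at some of the bases after it. That of let-7j is shown because it differs in the seed itself. Capitals mark the seed.
let-7a, from chr13:48538239-48538260, minus strand: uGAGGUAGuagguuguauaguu
let-7g, from chr9:106178846-106178867, plus strand: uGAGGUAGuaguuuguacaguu
miR-98, from chrX:151913229-151913250, plus strand: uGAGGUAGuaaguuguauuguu
let-7j, from chr3:140028281-140028304, plus strand: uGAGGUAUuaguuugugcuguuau

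The DNA match to this seed, CTACCTC, was searched on the transcript's own strand in the longest annotated 3′ UTR of each gene (GENCODE release 21, GRCm38). All 7 members held at least 1 match. Of 21037 genes with a 3′ UTR, 9.02% held a match and 1.06% held 2 or more. Lin28b, Trim71, Hmga2 and Igf2bp1 each held 4 matches, Lin28a held 2, and Igf2bp2 and Igf2bp3 held 1 each. Among UTRs within 25% of the same length, 4 or more matches were found in 0.238% for Lin28b, 0.481% for Trim71, 0.138% for Hmga2 and 0.264% for Igf2bp1. For Lin28a, 1.91% of such UTRs held 2 or more, and the single match of Igf2bp2 and Igf2bp3 was shared by 11.5% and 12.9%. The match nearest to the stop codon of each member is shown, all on the minus strand and within the 3′ UTR exon. Capitals mark the seed match with the A that follows it, which each of these 7 sites has.
Lin28a, chr4:134005189-134005210: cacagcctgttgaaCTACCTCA
Lin28b, chr10:45381022-45381043: cccgggcgggaagtCTACCTCA
Trim71, chr9:114512472-114512493: acattgcctaagtcCTACCTCA
Hmga2, chr10:120364224-120364245: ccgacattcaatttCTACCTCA
Igf2bp1, chr11:95961778-95961799: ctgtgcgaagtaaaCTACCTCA
Igf2bp2, chr16:22059473-22059494: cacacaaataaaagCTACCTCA
Igf2bp3, chr6:49086787-49086808: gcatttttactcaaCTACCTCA

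The members differed in where the matches lie. Lin28b and Hmga2 each had 1 match close to the stop codon, at bases 36 and 58 of the UTR, followed by A, and 3 further matches not followed by A. In Trim71 all 4 matches were followed by A, with a near pair at bases 166 and 262 and a far pair at bases 3591 and 3617. In Igf2bp1, whose UTR of 6337 bases is the longest of the 7, 3 of 4 were. A match describes the letters of the UTR and does not show that let-7 acts there in these cells.

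**Figure D1:**
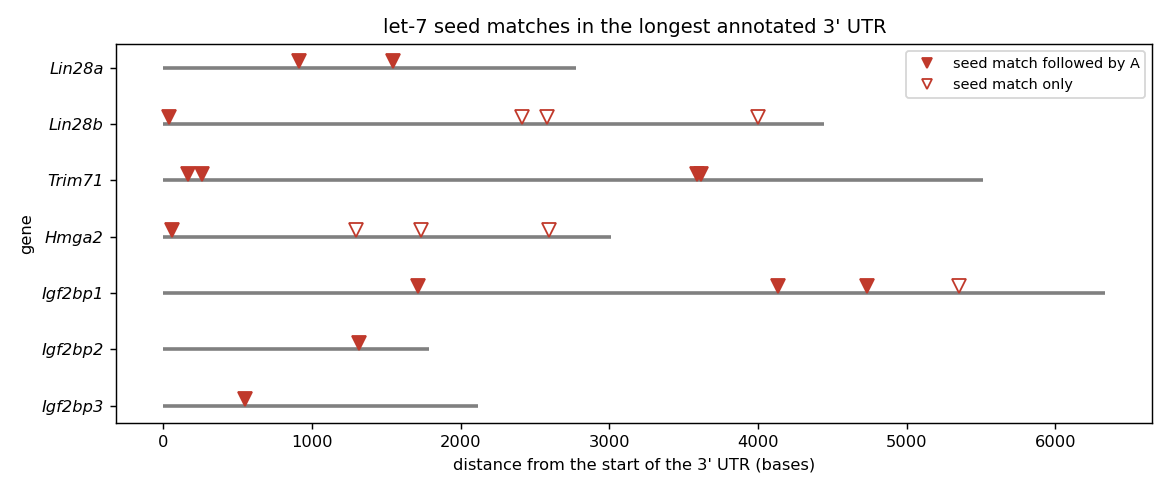
Position of let-7 seed matches (triangles) along the longest annotated 3′ UTR of each member (grey lines), in bases from the UTR start; filled triangles mark matches followed by A. Lin28b, Trim71, Hmga2 and Igf2bp1 carry 4 matches each and Igf2bp2 and Igf2bp3 carry 1.

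Total counts ranged from 22069338 to 33290250 per library. The markers fit the split of ES from the other groups. The 7 naive genes (such as Zfp42, Esrrb and Klf4) summed to between 2266 and 3524 CPM in ES (counts-per-million, scaled by the TMM method) and to at most 12.8 elsewhere. The 4 epiblast genes (Otx2, Pou3f1, Fgf5, Dnmt3b) summed to between 834 and 2246 in FS and 39.6 to 103 in ES. Their sums were 1003 to 1195 in EpiSC_AFX and 945 to 1279 in EpiSC_AF, within the FS range. This sum therefore does not tell FS from the EpiSC groups. Dnmt3b held its largest part, with an FS mean of 1308 CPM. ES replicate 1 stood apart: the mitochondrial rRNA gene mt-Rnr2 took 38.1% of its counts, against 9.96% to 25.02% in the other 15 libraries. Genes with at least 5 kb of exon sequence had a median log2 difference of -0.21 from the other ES libraries there, and genes under 2 kb of 0.25. Genes of 2 to 5 kb, the class of Lin28a (3.996 kb), had a median of 0. All members but Lin28a are in the class of at least 5 kb, among them Lin28b with 9.065 kb. The part of exon length in the members' values was not tested. All 7 members were lower in ES replicate 1 than the mean of the other ES libraries, by a log2 difference of -1.13 for Lin28a, -1.06 for Trim71, -0.97 for Hmga2, -0.91 for Igf2bp1, -0.74 for Igf2bp3, -0.66 for Igf2bp2 and -0.09 for Lin28b. The counts of members called against ES are therefore given with and without this library, as are some single values. Where no second value is given, the value includes this library and may differ without it.

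Each of FS, EpiSC_AFX and EpiSC_AF was first compared with the same ES libraries, so these comparisons share their controls. Lin28a, Lin28b and Hmga2 were higher than in ES in FS, EpiSC_AFX and EpiSC_AF alike, whereas Trim71, Igf2bp1 and Igf2bp2 were near the ES level in FS and Igf2bp3 was slightly lower. By edgeR's quasi-likelihood test at an adjusted p of 0.05, 4 of the 7 members were called between FS and ES (3 higher, 1 lower), where 62.8% of all genes tested were called, 32.9% higher and 29.9% lower. Between EpiSC_AFX and ES 4 members were called (3 higher, 1 lower), against 54.7% of all genes (28.5% higher, 26.2% lower). Between EpiSC_AF and ES 4 were called, all higher, against 56.7% of all genes (29.7% higher, 27.0% lower). Without ES replicate 1 the calls were 3 higher and 2 lower in FS, 3 and 1 in EpiSC_AFX and 4 and 2 in EpiSC_AF, where 61.7%, 54.5% and 56.6% of all genes were called. Scaling by total counts only moved the median log2 difference of all genes between FS and ES from 0.04 to 0.40, and the members called were then 4 higher and 0 lower in FS and 3 and 0 in EpiSC_AFX. The shares of all genes called under that scaling are not given here or beside later counts made with it. Such counts therefore cannot be read as a result about the members or lists.

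**Figure D2:**
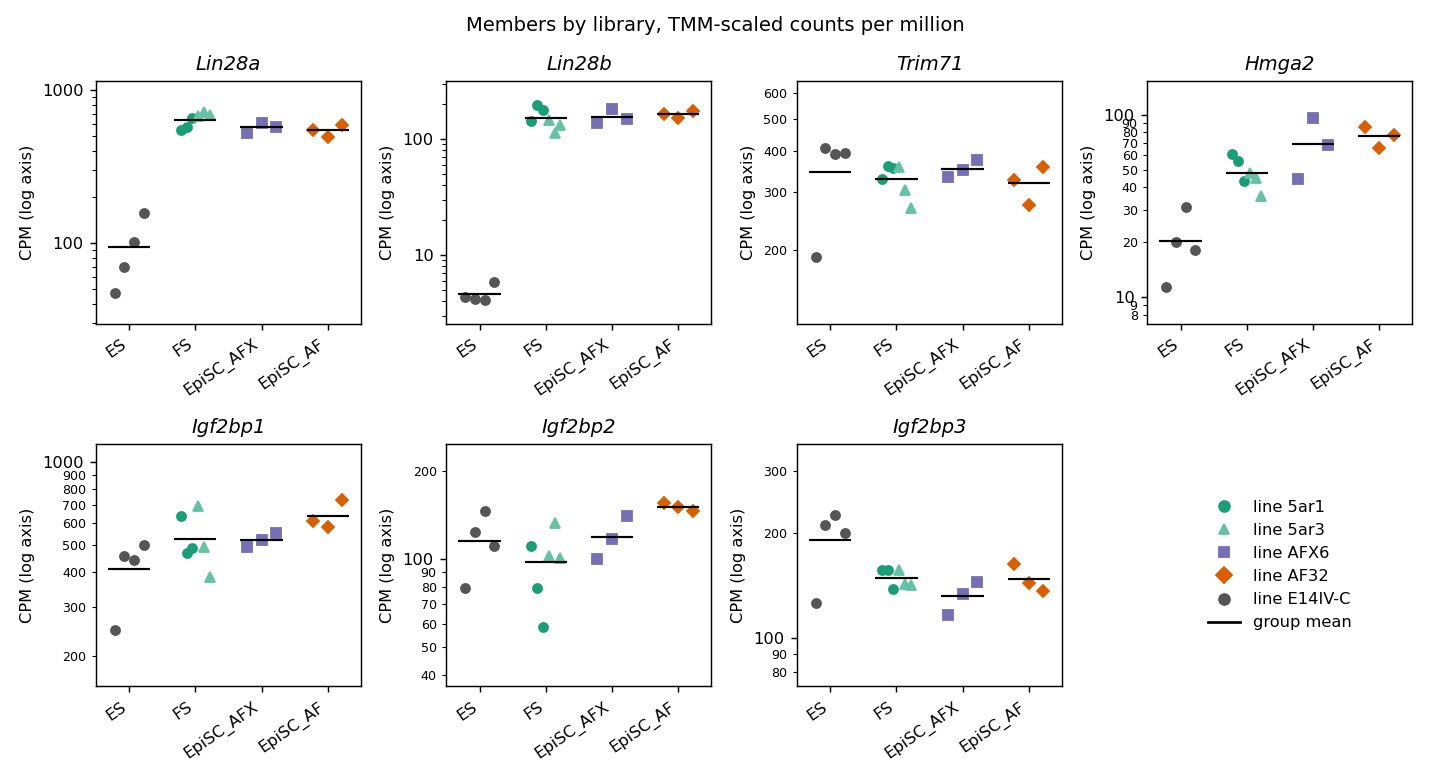
CPM (log axis, a different range for each gene) of the 7 members in each library, by group, with symbols for the cell lines and a bar at the group mean. Lin28a and Lin28b are separated between ES and all other libraries, while Trim71 overlaps across the 4 groups, with ES replicate 1 (190.5 CPM) below the rest.

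Lin28a (ENSMUSG00000050966, chr4:134003330-134018841, minus strand, GRCm38) is the paralog known as a pluripotency factor that blocks the maturation of let-7 precursors in the cytoplasm. In the ES libraries it was at 47.5, 69.4, 102.4 and 157.1 CPM at passages 12, 13, 15 and 20. In FS its lowest, median and highest values were 548, 669 and 721 CPM. EpiSC_AFX replicates 1 to 3 had 530, 608 and 579 CPM, and EpiSC_AF replicates had 554, 497 and 592 CPM. All 12 formative and epiblast libraries were above the highest ES library. The log2 fold change from ES to FS was 2.78 (SE 0.25, edgeR adjusted p 3.99e-08), a 6.85-fold difference, and was 2.60 for EpiSC_AFX and 2.54 for EpiSC_AF. Without ES replicate 1 it was 2.56 (SE 0.20, edgeR adjusted p 3.19e-08) for FS. In bulk RNA, fewer expressing cells and less RNA per cell cannot be told apart.

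Lin28b (ENSMUSG00000063804, chr10:45376620-45486395, minus strand) is the second Lin28 gene, known for a nuclear form that holds back primary let-7 transcripts. It was at 4.4, 4.2, 4.1 and 5.9 CPM in ES replicates 1 to 4, on 63 to 138 counts per library. FS libraries had 112 CPM at the lowest, 145 at the median and 198 at the highest. EpiSC_AFX replicates had 137, 182 and 149 CPM, and EpiSC_AF replicates had 165, 152 and 173. No ES library came near the other groups, and the FS range covered both EpiSC ranges. The log2 fold change against ES was 5.03 for FS (SE 0.20, edgeR adjusted p 1.75e-12), 5.07 for EpiSC_AFX and 5.14 for EpiSC_AF, a 32.8-fold difference in FS. Lin28b was the member with the largest difference in each of these 3 comparisons, and over the alternatives run its log2 value for FS stayed between 4.82 and 5.39. Without ES replicate 1 it was 5.01 for FS.

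Because both paralogs were higher in FS by unequal amounts, their ratio was compared within libraries. The log2 ratio of Lin28b to Lin28a (CPM with 0.1 added) was -2.10 ± 0.41 in FS (SD, n = 6) and -4.19 ± 0.60 in ES (SD, n = 4), a difference of 2.09. The ranges did not overlap, with -2.68 to -1.53 in FS and -4.72 to -3.42 in ES, and the two-sided exact permutation p was 0.00952, the smallest this design allows (0.0286 adjusted over 3 tests). With any 1 ES library left out the difference was between 1.91 and 2.35, and the smallest adjusted p such a design allows, 0.0714, was reached each time. Pooled over both FS lines, the test did not separate FS from EpiSC_AFX (difference -0.22, exact permutation p 0.429) or EpiSC_AF (difference -0.36, exact permutation p 0.214). The FS lines did not overlap in this ratio, at -1.94, -1.53 and -1.88 in 5ar1 and -2.21, -2.68 and -2.39 in 5ar3. All 5ar3 libraries lay below every EpiSC library, the lowest of which was at -1.96, whereas 5ar1 overlapped them, and both lines lay above ES. No test was made by line. Per length of exon sequence, Lin28b made up 9.52 ± 2.41% of the Lin28 total in the 6 FS libraries and 2.45 ± 1.05% in the 4 ES libraries (mean ± SD). It made up 10.7 ± 0.836% in EpiSC_AFX and 11.6 ± 0.241% in EpiSC_AF (SD, n = 3 each). Lin28a therefore remained the more abundant paralog in every group.

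Lin28a in ES followed the passage number, a relation examined after its values had been seen. Its slope was 0.20 log2 units per passage (SE 0.03, edgeR adjusted p 0.0492), in a fit with a mean and a slope for each line in which 16 of 18555 genes were called for ES, or 0.0862%. The call did not hold without ES replicate 1 (0.16, adjusted p 0.0904), without ES replicate 4 (0.36, adjusted p 0.468) or with total counts only (0.24, adjusted p 0.115). The slope of Lin28a was 0.07 in 5ar1, -0.01 in 5ar3, 0.05 in AF32 and -0.03 in AFX6, none of them called. The difference between the ES slope and the mean of the other lines was 0.18 (SE 0.05, edgeR adjusted p 1). Lin28b in ES had a slope of 0.06 (edgeR adjusted p 0.539).

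**Figure D3:**
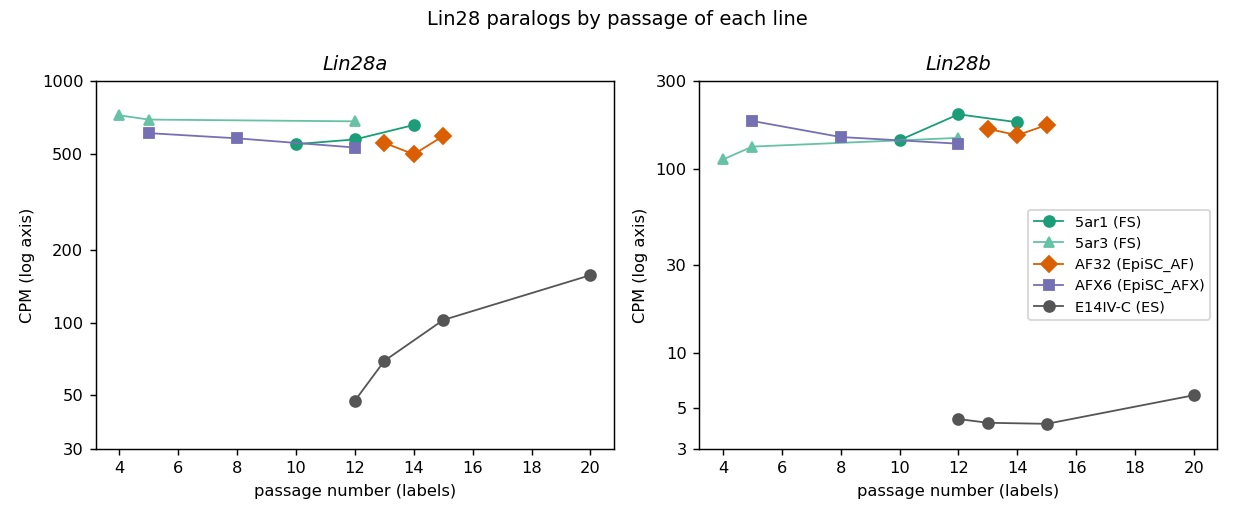
CPM (log axis) of Lin28a and Lin28b against the passage number given in the labels, with 1 line per cell line. Lin28a lies between 47.5 and 157.1 CPM in ES, in order of passage, and between 497 and 721 CPM in the other lines; Lin28b in ES stays between 4.1 and 5.9 CPM.

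Trim71 (ENSMUSG00000079259, chr9:114507133-114564369, minus strand), the ubiquitin ligase and mRNA repressor, was present at a similar level in all groups. ES replicates had 190.5, 406.6, 389.6 and 392.2 CPM. The lowest, median and highest FS libraries had 268, 342 and 359 CPM. EpiSC_AFX replicates had 331, 349 and 375 CPM, and EpiSC_AF replicates had 324, 273 and 358. ES replicate 1 was the lowest of all 16 libraries and the other 3 ES libraries were the highest. The FS to ES log2 fold change was -0.07 (SE 0.17, edgeR adjusted p 0.737) and became 0.24 (edgeR adjusted p 0.398) with total counts only. Without ES replicate 1, Trim71 was called lower than in ES in FS (-0.27, SE 0.11, edgeR adjusted p 0.0366) and in EpiSC_AF (-0.31, SE 0.12, edgeR adjusted p 0.0447) and not in EpiSC_AFX (-0.17, edgeR adjusted p 0.276). That library thus decides whether Trim71 is called.

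Hmga2 (ENSMUSG00000056758, chr10:120361275-120476469, minus strand), the AT-hook chromatin protein, was higher outside ES. ES replicates had 11.4, 20.1, 31.2 and 18.0 CPM. FS libraries had 35.9 CPM at the lowest, 46.5 at the median and 60.6 at the highest. EpiSC_AFX replicates had 44.3, 95.8 and 68.0 CPM, and EpiSC_AF replicates had 85.2, 65.6 and 77.3. The highest ES library was below the lowest library of every other group. Log2 fold changes against ES were 1.25 for FS (SE 0.25, edgeR adjusted p 3.06e-04), 1.78 for EpiSC_AFX and 1.91 for EpiSC_AF, and 1.06, 1.59 and 1.73 without ES replicate 1. All were called in both cases.

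The 3 Igf2bp genes were not called alike against ES, and a difference between them was not tested. Igf2bp1 (ENSMUSG00000013415, chr11:95957163-96005940, minus strand), which binds Myc, H19 and beta-actin mRNA, had 248.7, 459.0, 442.7 and 500.5 CPM in ES replicates 1 to 4. FS libraries had 383 CPM at the lowest, 491 at the median and 691 at the highest. EpiSC_AFX replicates had 493.4, 522 and 553 CPM, and EpiSC_AF replicates had 612, 581 and 726. FS overlapped ES, and EpiSC_AF did not. The difference from ES was called for EpiSC_AF (log2 fold change 0.63, SE 0.21, edgeR adjusted p 0.0184; 0.46 and adjusted p 0.0369 without ES replicate 1), but not for FS (0.35, edgeR adjusted p 0.105) or EpiSC_AFX (0.34, edgeR adjusted p 0.191). With total counts only the FS difference was called (0.68, edgeR adjusted p 0.0290), and without ES replicate 1 it was 0.17 in both FS and EpiSC_AFX. Without EpiSC_AF replicate 3 the call was lost (0.53, edgeR adjusted p 0.0801). Chromosome 11 as a whole was high in EpiSC_AF: the median log2 difference from ES of its 1396 tested genes was 0.29, against 0.01 for all genes, and the part of this in the Igf2bp1 value was not tested.

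Igf2bp2 (ENSMUSG00000033581, chr16:22059009-22163299, minus strand), the member of the family that stays active in adult tissue, had 79.5, 124.0, 145.8 and 110.5 CPM in ES replicates 1 to 4. FS libraries had 58.5 CPM at the lowest, 101 at the median and 132 at the highest. EpiSC_AFX replicates had 100.01, 116.8 and 140.0 CPM, and EpiSC_AF replicates had 154.9, 150.3 and 146.4. EpiSC_AF lay above all FS libraries and just above the highest ES library. No comparison with ES was called (log2 fold change -0.24 for FS, 0.05 for EpiSC_AFX, 0.39 for EpiSC_AF), and the FS value was 0.08 with total counts only.

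Igf2bp3 (ENSMUSG00000029814, chr6:49085223-49214957, minus strand), the member most often re-expressed in tumours, was the 1 member called lower than in ES. ES replicates had 126.4, 210.0, 224.4 and 200.1 CPM, and FS libraries had 138 CPM at the lowest, 150 at the median and 157 at the highest. EpiSC_AFX replicates had 117, 134 and 144 CPM, and EpiSC_AF replicates had 163, 144 and 136. ES replicates 2 to 4 lay above every other library, while ES replicate 1 lay below all of them but EpiSC_AFX replicate 1. The log2 fold change was -0.35 for FS (SE 0.13, edgeR adjusted p 0.0287), -0.53 for EpiSC_AFX (SE 0.16, edgeR adjusted p 0.00995) and -0.37 for EpiSC_AF (edgeR adjusted p 0.0599). Without ES replicate 1 all 3 were called, at -0.51, -0.68 and -0.51. Without ES replicate 2, 3 or 4 the FS call was lost, with edgeR adjusted p values of 0.0845, 0.114 and 0.0641, and without EpiSC_AFX replicate 1 the EpiSC_AFX call was (-0.45, edgeR adjusted p 0.0526). With total counts only the FS value was -0.03 (edgeR adjusted p 0.901) and the EpiSC_AFX value -0.34 (edgeR adjusted p 0.248). The FS call was also lost with no low-count filter (edgeR adjusted p 0.0632), with line 5ar1 or 5ar3 alone (0.0948 and 0.0798) and in a fit of the groups compared alone (0.0598), as was the EpiSC_AFX call in such a fit (0.0530). In all, 8 of 19 alternatives ended the FS call and 3 of 13 the EpiSC_AFX call. Igf2bp3 shares 1529 exon bases with Malsu1 on the other strand, and as the strand setting of the counting is not given in the sources used here, reads from the 2 genes cannot be told apart in that stretch.

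**Figure D4:**
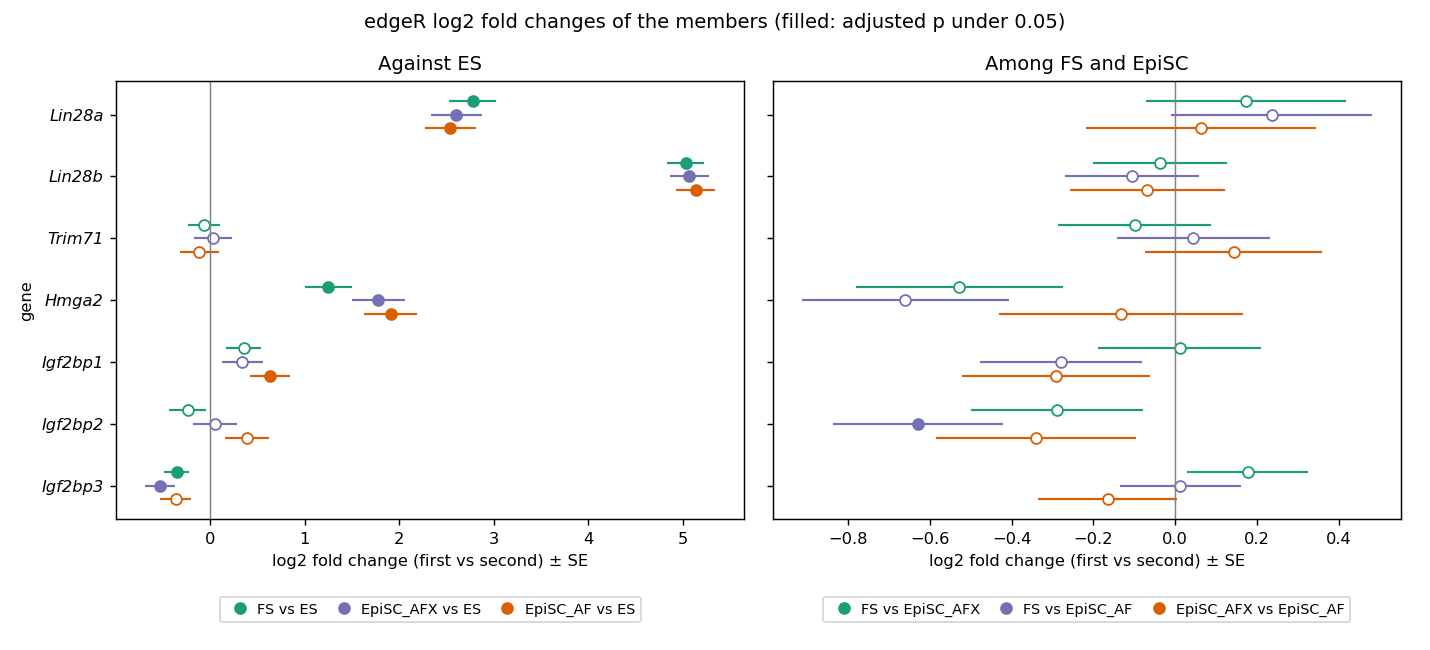
Log2 fold change ± SE of each member from edgeR, against ES (left) and among FS and the EpiSC groups (right); filled points have an adjusted p under 0.05. Lin28b is near 5 and Lin28a between 2.54 and 2.78 against ES in all 3 comparisons, and on the right only Igf2bp2 between FS and EpiSC_AF is filled (-0.63).

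Per length of exon sequence, which allows genes to be compared within a group, Lin28a led the members in FS at 162 ± 17.4 CPM per kb (SD, n = 6), above Igf2bp1 at 54.4 ± 11.8, Trim71 at 35.2 ± 3.91, Igf2bp3 at 18.3 ± 1.07, Lin28b at 16.8 ± 3.45, Igf2bp2 at 13.2 ± 3.46 and Hmga2 at 7.10 ± 1.31. The first 3 ranks and the last were separated by more than the SDs, and Igf2bp3, Lin28b and Igf2bp2 were not. In ES the order began with Igf2bp1 at 42.6 ± 11.6 and Trim71 at 36.9 ± 11.05 (SD, n = 4), which overlapped, followed by Lin28a at 23.5 ± 11.9 and Igf2bp3 at 23.3 ± 5.36. Lin28b was last in ES, at 0.510 ± 0.0926, below Hmga2 at 2.98 ± 1.21. On this scale Lin28a went from above 87.0% of the tested genes in ES to above 98.4% in FS, and Lin28b from 27.5% to 84.6%. Igf2bp1 made up 63.0 ± 4.85% of the Igf2bp total in FS (SD, n = 6) and 52.0 ± 3.51% in ES (SD, n = 4), and Igf2bp3 21.6 ± 2.64% and 28.7 ± 1.33%.

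Formative cells were then set against each epiblast stem cell group. Between FS and EpiSC_AFX, where 5.00% of all genes were called (2.89% higher, 2.10% lower), 0 of the 7 members were called by edgeR, and 0 had an unadjusted p under 0.05; DESeq2 called 0. Hmga2 had the largest value, with -0.53 on the log2 scale (SE 0.25, edgeR adjusted p 0.280), with overlapping libraries. It was -0.22 without EpiSC_AFX replicate 2, the library with the highest Hmga2 level, and -0.77 without EpiSC_AFX replicate 1. The values of the other 6 were between -0.29 and 0.18. A value that misses the threshold does not show that the 2 groups are alike. Summed over the neuroectoderm markers Sox1, Pax6, Neurod1 and Tubb3, FS libraries had 64.5 to 128 CPM and EpiSC_AFX libraries 22.2 to 39.0. Of these genes, edgeR called Pax6 and Tubb3 higher in FS and did not call Sox1 or Neurod1. The part of these markers in the members' values was not tested.

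Between FS and EpiSC_AF, where 16.6% of all genes were called (7.84% higher in FS, 8.81% lower), Igf2bp2 was the 1 member called, lower in FS (log2 fold change -0.63, SE 0.21, edgeR adjusted p 0.0473). FS libraries had 58.5 to 132 CPM and EpiSC_AF libraries 146 to 155, with no overlap. The call did not hold with total counts only (-0.54), with a filter at a mean of 1 CPM (-0.62), with line 5ar3 as the only FS line (-0.43, against -0.86 for 5ar1 alone), or without any 1 of 8 libraries, namely FS replicates 1, 2, 3, 4 and 6 and all 3 of EpiSC_AF, with values between -0.67 and -0.51 there. Hmga2, with 35.9 to 60.6 CPM in FS and 65.6 to 85.2 in EpiSC_AF, also did not overlap but was not called (-0.66, SE 0.25, edgeR adjusted p 0.0857); fitted on these 2 groups alone it was called (edgeR adjusted p 0.0191) and Igf2bp2 was not (edgeR adjusted p 0.0557). Markers of other cell types moved with this comparison. Summed over 5 primitive streak genes (T, Mixl1, Eomes, Foxa2, Cer1), EpiSC_AF libraries had 312 to 739 CPM and FS libraries 16.4 to 52.5. Over 4 genes listed as primitive endoderm markers (Gata4, Gata6, Sox17, Dab2) the ranges were 43.0 to 114 and 2.84 to 15.99. Gata4, Gata6 and Sox17 were called lower in FS by edgeR. Dab2, with the largest part of the FS sum (mean 7.39 CPM), was not called (edgeR adjusted p 0.436). Over 6 fibroblast genes (Col1a1, Col1a2, Col3a1, Thy1, Postn, Acta2) the ranges were 58.2 to 157 and 25.3 to 105. Acta2 and Thy1 held the largest parts of the FS sum, with means of 28.7 and 13.2 CPM. Col1a1, Col3a1 and Postn had FS means of 1.61, 0.805 and 0.282 CPM. The sum of the 4 neuroectoderm genes went the other way without overlap, with 19.3 to 36.4 in EpiSC_AF and 64.5 to 128 in FS. Of these 4 genes, edgeR called only Tubb3 (log2 fold change 1.91, edgeR adjusted p 0.00211). A mean of at least 1 CPM was found for 5, 4, 6 and 3 genes of these lists in EpiSC_AF and for 4, 1, 4 and 4 in FS. The part of these markers in the Igf2bp2 and Hmga2 values was not tested.

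Between the 2 EpiSC groups, where 4.26% of genes were called (1.43% higher in EpiSC_AFX, 2.83% lower), edgeR called 0 members, with 0 at an unadjusted p under 0.05, and DESeq2 called 0. Igf2bp1 and Igf2bp2 had log2 fold changes of -0.29 and -0.34 (edgeR adjusted p 0.576 and 0.530). Both were lower in each EpiSC_AFX library than in any EpiSC_AF library, and the share of all genes without such overlap was not computed. The median over chromosome 11, which holds Igf2bp1, was -0.42 in this comparison, a larger difference than that of Igf2bp1, and 20.1% of its genes were called. Between the FS lines, where 3.88% of genes were called (1.86% higher in 5ar1, 2.02% lower), edgeR and DESeq2 called 0 members, and 1 had an unadjusted p under 0.05. This was Lin28b, at 143, 198 and 179 CPM in 5ar1 and 147, 112 and 132 in 5ar3 (log2 fold change 0.41, SE 0.17, edgeR adjusted p 0.205). Lin28a lay the other way, at 548 to 657 CPM in 5ar1 and 681 to 721 in 5ar3 (-0.24, edgeR adjusted p 0.697). A passage slope common to all lines was called for 0.00539% of genes, a single gene, and for 0 members by edgeR or DESeq2. Lin28a had an unadjusted p under 0.05 there (0.07 per passage, edgeR adjusted p 0.559).

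The genes around the members were described from lists of their known partners and targets. Of 12 genes that process let-7 or other microRNA precursors, 3 were higher in FS than in ES, 1 was lower and 8 were not called. Of all genes tested, 32.9% were called higher and 29.9% lower. The median log2 fold change of the list was -0.07 against 0.04 for all genes. Prkra, a Dicer partner, had a mean of 44.5 ± 7.24 CPM over FS libraries (SD, n = 6) against 15.5 ± 10.6 over ES (SD, n = 4) (log2 fold change 1.53, SE 0.28, edgeR adjusted p 1.41e-04). Dicer1, which cuts the precursor hairpin, was higher by 0.68 and the let-7 antagonist Hnrnpa1 by 0.28. Drosha, which cuts the primary transcript, was lower by -0.56. In EpiSC_AFX 3 genes of this list were higher and 1 lower, against 28.5% and 26.2% of all genes. In EpiSC_AF 2 were higher and 1 lower, against 29.7% and 27.0%. Prkra and Dicer1 were higher and Tarbp2, another Dicer partner, lower in both EpiSC groups. Without ES replicate 1 the FS split was 3 higher and 4 lower, and with total counts only 5 and 0.

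Rows for let-7 precursor genes gave no usable level. The table held 9 such rows, of which 3 passed the filter, and the highest group mean was 0.902 CPM, for Mirlet7f-1 in ES. Libraries of this kind do not capture mature microRNAs, so let-7 itself is not measured here.

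Of 26 known let-7 targets outside the 7 members, 16 were higher and 4 lower in FS than in ES, with a median log2 fold change of 0.79 against 0.04 for all genes. Of all genes tested, 32.9% were called higher and 29.9% lower in FS. The let-7 target list gave 15 higher and 3 lower in EpiSC_AFX (median 0.75), against 28.5% and 26.2% of all genes. It gave 19 and 3 in EpiSC_AF (median 0.72), against 29.7% and 27.0%. In FS without ES replicate 1 it gave 15 and 5, and with total counts only 18 and 1. Ccnd2, a G1 cyclin, averaged 108 ± 34.9 CPM over FS libraries (SD, n = 6) and 0.562 ± 0.174 in ES (SD, n = 4; log2 fold change 7.56, SE 0.34, edgeR adjusted p 9.44e-12). Thbs1, a matrix glycoprotein, was higher by 8.16 and the growth factor Igf2 by 6.86, both spread widely over FS libraries (30.1 to 339 CPM for Thbs1 and 9.40 to 113 CPM for Igf2). The sum of 6 fibroblast markers was also higher there, with 25.3 to 105 CPM in FS and 0.587 to 1.15 in ES, where 3 of the 6 were under 0.1 CPM. Of the 6, Postn was not called between FS and ES (edgeR adjusted p 0.0996). The part of these markers in the values of the let-7 targets was not tested. The lower genes included Dna2, a replication nuclease (-1.18), Bach1, a transcriptional repressor (-0.46), and Cdc25a, a cell-cycle phosphatase (-0.44). Between FS and EpiSC_AFX Dna2 was lower in FS (-0.51). Between FS and EpiSC_AF Nr6a1, a nuclear receptor of the early embryo, was higher (0.60), and the transcription factor Arid3a was lower (-0.77). Between the FS lines Prtg, an early embryonic surface protein, was lower in 5ar1 than in 5ar3 (57.2 ± 12.4 and 149 ± 30.1 CPM, SD, n = 3 each; -1.38), as was Ccnd2 (-0.78).

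**Figure D5:**
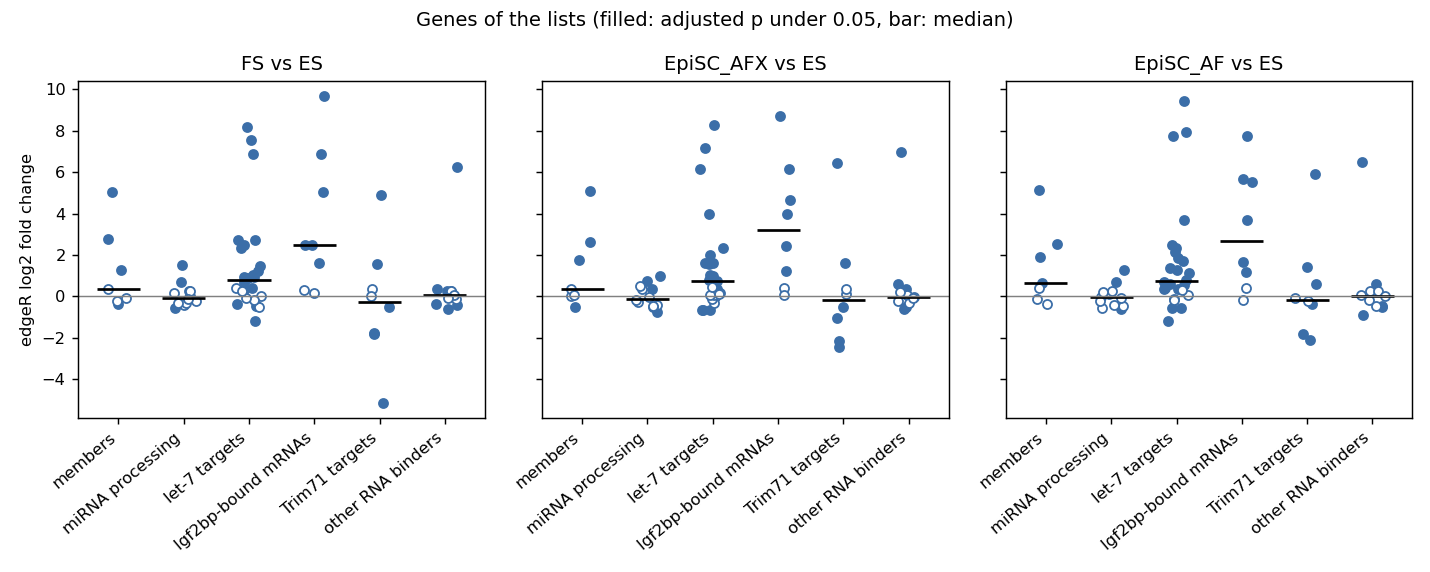
Log2 fold changes against ES for the members and 5 lists of related genes, with 1 point per gene (filled: adjusted p under 0.05) and a bar at the median. Medians of the let-7 targets lie at 0.79, 0.75 and 0.72 and those of the Igf2bp-bound mRNAs at 2.48, 3.20 and 2.67, while the microRNA processing genes lie near 0.

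Seed matches were also counted outside the members. Of 181 tested genes with 2 or more matches, 41.4% were higher and 24.3% lower in FS than in ES (median log2 fold change 0.19), and of 12774 genes without a match 34.1% were higher and 31.3% lower (median 0.02). Long UTRs alone gave a similar picture: among genes without a match whose UTR had at least 2 kb, 40.1% were higher and 28.0% lower (median 0.16). With both conditions, 153 genes gave 44.4% higher and 21.6% lower (median 0.23). In EpiSC_AFX the classes were closer: 33.1% higher and 26.5% lower with 2 or more matches, against 29.97% and 27.8% without a match. Among UTRs of at least 2 kb, EpiSC_AFX gave 35.9% and 24.8% with 2 or more matches and 34.0% and 24.8% without. In EpiSC_AF the same split gave 39.2% and 23.5% against 38.4% and 23.3%. All these shares include ES replicate 1, where long genes were low, and were not computed without it.

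Of 8 RNAs known to be bound by Igf2bp proteins, 6 were higher in each of FS, EpiSC_AFX and EpiSC_AF than in ES and 0 were lower, with medians of 2.48, 3.20 and 2.67 against 0.04, 0.01 and 0.01 for all genes, of which 62.8%, 54.7% and 56.7% were called in either direction; in FS without ES replicate 1 the split was also 6 and 0. H19, the imprinted noncoding RNA next to Igf2, ranged from 26.3 to 248 CPM in FS (median 71.6) and from 0.0452 to 0.207 in ES (log2 fold change 9.66, SE 1.26, edgeR adjusted p 5.47e-06), where it rests on few counts. Cd44, an adhesion receptor, was higher by 5.06. The sum of the 6 fibroblast markers was also higher than in ES, with means of 52.1 CPM in FS, 24.7 in EpiSC_AFX and 101 in EpiSC_AF against 0.869 in ES. The part of these markers in the values of this list was not tested. Igf2 and Myc are on this list as well as among the let-7 targets. H19 was also higher in FS than in EpiSC_AF (93.0 ± 82.5 and 5.84 ± 3.07 CPM; log2 fold change 3.99, SE 0.93, edgeR adjusted p 0.00746), as was the kinase gene Mapk4 (0.83).

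Of 8 mRNAs reported as repressed by Trim71, 2 were higher and 4 lower in FS than in ES (median -0.26), against 32.9% and 29.9% of all genes tested. Without ES replicate 1 the split of the list was the same. The cell-cycle inhibitor gene Cdkn1a averaged 20.7 ± 9.01 CPM over FS libraries (SD, n = 6) and 72.6 ± 17.0 in ES (SD, n = 4; log2 fold change -1.81, SE 0.25, edgeR adjusted p 8.60e-06). The pocket protein genes Rbl2 (-1.80) and Rbl1 (-0.52) were lower too, while the immediate-early gene Egr1 (4.88) and E2f7 (1.58) were higher. With total counts only, 3 were higher and 3 lower. Egr1 was lower in FS than in EpiSC_AFX (-1.56, edgeR adjusted p 0.0296), and the splicing regulator Mbnl1 lower than in EpiSC_AF (-0.60).

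Among 11 other RNA-binding proteins, 3 were higher and 3 lower in FS than in ES (median 0.08), against 32.9% and 29.9% of all genes tested. The split of the list was 1 and 2 without ES replicate 1, and 4 and 0 with total counts only. Esrp1, an epithelial splicing factor, was higher by 6.25, whereas the splicing factor Rbfox2 was lower (-0.63). The FS lines differed in this list: Esrp1 was at 85.0 ± 22.02 CPM in 5ar1 and 12.9 ± 2.86 in 5ar3 (SD, n = 3 each; log2 fold change 2.72, SE 0.24, edgeR adjusted p 6.87e-06), and Msi1, a neural stem cell RNA binder, was lower in 5ar1 (-0.96, edgeR adjusted p 0.0395).

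Genes whose levels ran most like each member were found by the root mean square difference of centred log2 CPM over the 16 libraries, among 14775 genes with a mean of at least 1 CPM. For Lin28a these were Arnt2 (0.22) and Fam126a (0.25), and for Lin28b Setd7 (0.26) and Tcfl5 (0.29). Setd7 had group means of 105 CPM in FS, 121 in EpiSC_AFX, 106 in EpiSC_AF and 2.45 in ES. Trim71 ran closest to Abcf1 (0.11) and Chaf1a (0.12), Hmga2 to Farp1 (0.29) and Gm38158 (0.31), Igf2bp1 to Gpatch8 and Ccdc6 (0.15 each), Igf2bp2 to Sec24a (0.18) and Pdcd6ip (0.19), and Igf2bp3 to Fam178a (0.11) and Dcp1a (0.13). Among the members themselves the nearest pair was Trim71 and Igf2bp3 (0.24) and the farthest Lin28b and Igf2bp3 (2.36). Lin28a and Lin28b differed by 1.04 on this measure.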

How the data were processed

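The authors deposited raw counts per gene, with symbols and Ensembl identifiers. Per the submitters' processing notes, Trim Galore, TopHat2 2.1.0 and featureCounts 1.5.0 were used with mm10. Per the labels' protocols, Trizol and column-purified RNA went into a directional library kit. The annotation and strand setting are not given in the sources used here. A further 6 columns matched no labelled sample and were not used.

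Counts were analysed with edgeR 4.0.16 (filterByExpr, TMM scaling, robust quasi-likelihood fit over all 16 libraries, Benjamini-Hochberg adjustment over 18555 genes, threshold 0.05), with a mean per group, or per line for FS lines and the passage slope. The procedure was run on simulated counts with a small set of genes changed in FS alone. That check does not cover a library such as ES replicate 1 or comparisons in which most genes are called. Levels per kb used exon lengths of GENCODE release 21 (GRCm38). The ratio of Lin28b to Lin28a was tested by exact permutation. Replicates are numbered by accession and are not paired across groups. Overlap of libraries between groups was examined for the members only, so no share over all genes is given beside it.

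List genes written out were up to 3 with the largest change per direction among called genes whose higher group averaged 5 CPM or more, and the 2 genes nearest to each member's profile were named. Some list genes that meet this rule are not reported here. The members and lists were chosen with earlier results of these data known. Alternatives were DESeq2 1.42.0 (size factors, Wald test), total counts only, other filters, fewer groups, a mean per line, single FS lines, other pseudocounts and leaving out each library. The ES slope and list counts without ES replicate 1 were added after seeing the data.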

Additional observations from a re-analysis of the deposited data

Results flagged for a closer look

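Libraries far from the rest of their group were sought for each member in FS and ES, in 14 sets of values, where chance alone marks about 1 in 20. Trim71 in ES replicate 1, at 190.45 CPM against 390 to 407 in the other 3 ES libraries, was marked as lying far below its group. Lin28b in ES replicate 4, at 5.87 CPM against 4.1 to 4.4 in the others, was marked as lying above its group. ES replicate 1 is the library with 38.1% of its counts from mt-Rnr2, and ES replicate 4 is the one with the highest passage number, 20. The part of either in these values was not tested.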

How the results depend on the processing

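Lin28a, Lin28b and Hmga2 were called higher than ES in all 3 comparisons under every alternative run. Members called ranged over the alternatives from 3 to 5 for FS against ES, 3 to 4 for EpiSC_AFX and 3 to 6 for EpiSC_AF. The share of all genes called under each alternative is not given beside these ranges, so they are not a result about the members. Between FS and EpiSC_AF the count went from 1 to 0 with total counts only, with a mean of at least 1 CPM and with FS line 5ar3 only (0 each), and ranged from 0 to 1 with a library left out; the cause was not tested. The Lin28b to Lin28a difference between FS and ES was 1.91 to 2.35 with an ES library left out, where 6 against 3 libraries cannot reach the threshold.

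Some values near 0 changed sign, and no value with a changed sign was called. With total counts only, Trim71 was 0.24 (FS against ES), 0.0957 (EpiSC_AF against ES) and 0.0374 (FS against EpiSC_AFX), Igf2bp2 0.0839 (FS against ES) and Lin28b 0.0836 (FS against EpiSC_AFX). With no low-count filter, Igf2bp1 was -0.0082 (FS against EpiSC_AFX) and Igf2bp3 -0.0053 (FS against EpiSC_AF), and fitted on the groups compared alone Igf2bp1 was -0.0025 (FS against EpiSC_AFX). With 5ar1 only, Trim71 was 0.0036 against ES and Lin28b 0.14 against EpiSC_AFX and 0.0777 against EpiSC_AF; with 5ar3 only, Trim71 was -0.0356 against EpiSC_AF. With a library left out, FS against ES gave -0.27 to 0.0136 for Trim71. FS against EpiSC_AFX gave -0.13 to 0.0885 for Lin28b and -0.0807 to 0.0824 for Igf2bp1. FS against EpiSC_AF gave -0.0547 to 0.14 for Trim71 and -0.0400 to 0.0900 for Igf2bp3. The FS lines gave -0.17 to 0.27 for Igf2bp1 and -0.0237 to 0.0880 for Igf2bp3. The passage slope was -0.0638 to 0.00058 for Hmga2 and -0.0108 to 0.0178 for Igf2bp3. EpiSC_AFX against EpiSC_AF gave -0.0013 to 0.12 for Lin28a, -0.19 to 0.0200 for Lin28b and -0.44 to 0.11 for Hmga2. EpiSC_AFX against ES gave -0.17 to 0.11 for Trim71 and -0.0855 to 0.18 for Igf2bp2. No paired analysis was possible because the replicate numbers only order the accessions.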
